A study of Mus musculus with 10 samples.

Results

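Ifit1, Ifit3, Isg15, Irf7, Oasl2, Usp18, Bst2, Rsad2 and Ifi27 are genes switched on by interferons, and their levels were read in whole brain of mice overexpressing Glo1 and of wild-type mice. The 9 genes were chosen by name, and each was read from its brightest probe set, among those that the platform annotation assigns to that symbol alone. By this rule 8 of the 9 had a value, out of 19938 genes with a probe set of their own, and each of the 8 had 1 such probe set, so brightness decided no choice. The probe set for Isg15 is also assigned to a second gene, and Isg15 was not analysed here. The list was drawn up with earlier results of these arrays known, namely the difference of Ifit1 between genotypes and the part that Tg replicate 3 had in it. Both are therefore given as descriptions, with no test.

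Interferons are secreted when cells sense viral nucleic acid. Type I interferons bind the receptor Ifnar1 and Ifnar2 on most cell types, and the kinases Jak1 and Tyk2 then pass the signal to transcription factors, Irf9 among them, that bind the interferon-stimulated response element in the promoters of responding genes. In the uninfected brain these genes run at a low basal level, and microglia, astrocytes, endothelial cells and neurons can all raise them.

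All mice were naive adult males, C57Bl/6J by strain. The groups were 5 transgenic (Tg) mice carrying Glo1 on a bacterial artificial chromosome, and 5 wild-type (WT) littermates. RNA came from the whole brain, with 1 single-channel Affymetrix gene array per mouse, and the labels call the samples biological replicates. The sources used here give neither the line's copy number nor the promoter that drives the transgene. Values are the deposited log2 expression values, on which a step of 1 unit is a doubling of signal.

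The libraries were checked before the interferon genes were read. Glo1, which encodes the methylglyoxal-detoxifying enzyme glyoxalase 1, averaged 11.97 log2 units in Tg brain, against 10.47 in WT brain, and this matched the labels. The list means of neuronal markers lay between 11.80 and 11.83 on Tg arrays and between 11.80 and 11.84 on WT arrays. WT replicate 2 stood apart. It read 12 cerebellar markers at a mean of 8.35, where the other arrays read 10.59 to 10.91, and 36.5% of all 28944 probe sets tested had their highest value there. Among the dimmest 40% of probe sets the median was 0.18 log2 units higher on this array than on the mean of the other WT arrays, so results that rest on it are given with and without it.

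Promoter sequence is shown for 5 of the genes because the response element is what ties this group to interferon. The letters searched were GAAANNGAAA, the core of the interferon-stimulated response element, on both strands, in RefSeq windows of 300 bases (250 before to 50 after the gene start, build GRCm38.p6). Windows were found for 6 of the 8 genes. The core occurred in 4 of these 6, and in 3.44% of all 32851 windows. Each line gives the 120 bases from 180 to 61 before the gene start, 5′ to 3′ on the gene's own strand, with the core in capitals.
Ifit1, chr19:34640709-34640828, plus strand: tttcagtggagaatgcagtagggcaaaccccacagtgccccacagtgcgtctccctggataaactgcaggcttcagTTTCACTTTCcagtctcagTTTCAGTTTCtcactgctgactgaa
Ifit3, chr19:34583349-34583468, plus strand: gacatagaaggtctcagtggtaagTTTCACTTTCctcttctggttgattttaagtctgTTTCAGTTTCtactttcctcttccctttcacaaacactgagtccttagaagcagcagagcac
Bst2, chr8:71537533-71537652, minus strand: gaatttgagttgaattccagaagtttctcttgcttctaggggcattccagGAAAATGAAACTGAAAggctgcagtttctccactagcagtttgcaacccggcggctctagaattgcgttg
Rsad2, chr12:26456513-26456632, minus strand: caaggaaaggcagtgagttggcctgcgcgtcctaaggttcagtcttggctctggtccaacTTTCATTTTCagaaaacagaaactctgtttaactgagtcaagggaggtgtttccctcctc
Oasl2, chr5:114896754-114896873, plus strand: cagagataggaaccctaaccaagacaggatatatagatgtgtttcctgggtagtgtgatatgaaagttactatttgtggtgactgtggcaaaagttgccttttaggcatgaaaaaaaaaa

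Ifit1 and Ifit3, neighbours on chromosome 19, each held the core 2 times, at 85 and 104 bases before the start in Ifit1 and at 122 and 156 bases in Ifit3. In Bst2 the 2 matches overlapped in a single run, and Rsad2 held 1. Oasl2 and Irf7 held none, which says only that these letters are not in this window. On Tg replicate 3 the genes with a match were above the mean of the other 4 Tg arrays by 0.46 log2 units for Ifit1, 0.25 for Ifit3, 0.19 for Rsad2 and 0.02 for Bst2. Those without a match were above it by 0.34 for Oasl2 and 0.06 for Irf7, so the ranges of both kinds overlapped.

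The first question was whether the interferon genes were high together on single mice. All 8 were above their own median over the 10 arrays on Tg replicate 3, where 46.4% of all probe sets were. On Tg replicates 2 and 5, 7 of the 8 were, beside 52.2% and 54.4% of all probe sets. Ifit1, Ifit3, Oasl2 and Usp18 had their highest value of the 10 arrays on Tg replicate 3, and in the background 6.31% of probe sets did. Ifit1 is in all these counts although its level on Tg replicate 3 was known beforehand, so they are descriptions with no test. Irf7, Rsad2 and Ifi27 were highest on WT replicate 2 and Bst2 on Tg replicate 5. Single-array peaks thus lay on 3 arrays, and the 4 genes with their peak on Tg replicate 3 are described first.

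Ifit1 encodes a protein that binds foreign RNA caps and blocks their translation. It read 7.68, 7.80, 8.21, 7.81 and 7.72 log2 units on Tg replicates 1 to 5, against 7.37, 7.67, 7.63, 7.56 and 7.73 on WT replicates 1 to 5. Tg replicate 3 stood clear of every other array, 0.40 above the next one. Tg replicates 2 and 4 also lay above every WT value, and 4 of the 5 WT values lay below the lowest Tg value. WT replicate 5 lay within the range of the remaining Tg values. The fold over the mean of the other 4 Tg arrays was 1.37, and 0.149% of all probe sets were as far above that mean on this array.

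Oasl2, an oligoadenylate synthetase-like antiviral protein, came closest to Ifit1. Its values were 7.93, 8.20, 8.39, 8.12 and 7.96 on Tg replicates 1 to 5, against 7.94, 8.12, 8.01, 7.96 and 7.90 on WT replicates 1 to 5. Tg replicate 3 was 0.20 above the second-highest array, and the lowest Tg value lay within the WT range. The fold of Tg replicate 3 over the other 4 Tg arrays was 1.27, and 0.484% of probe sets were as far above.

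Ifit3, of the same family as Ifit1, read 8.88, 9.17, 9.20, 8.72 and 9.03 on Tg replicates 1 to 5, against 9.01, 8.59, 9.11, 8.94 and 8.85 on WT replicates 1 to 5. Here Tg replicate 3 led by a narrow margin of 0.03 over Tg replicate 2, and Tg and WT values were mixed. Usp18, a protease that takes Isg15 off its targets and damps the interferon receptor, had 7.32, 7.42, 7.59, 7.57 and 7.46 on Tg replicates 1 to 5, against 7.47, 7.35, 7.38, 7.40 and 7.45 on WT replicates 1 to 5. Its lead on Tg replicate 3 was also narrow, 0.02 over Tg replicate 4, and Tg replicate 1 was the lowest of the 10.

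**Figure D1:**
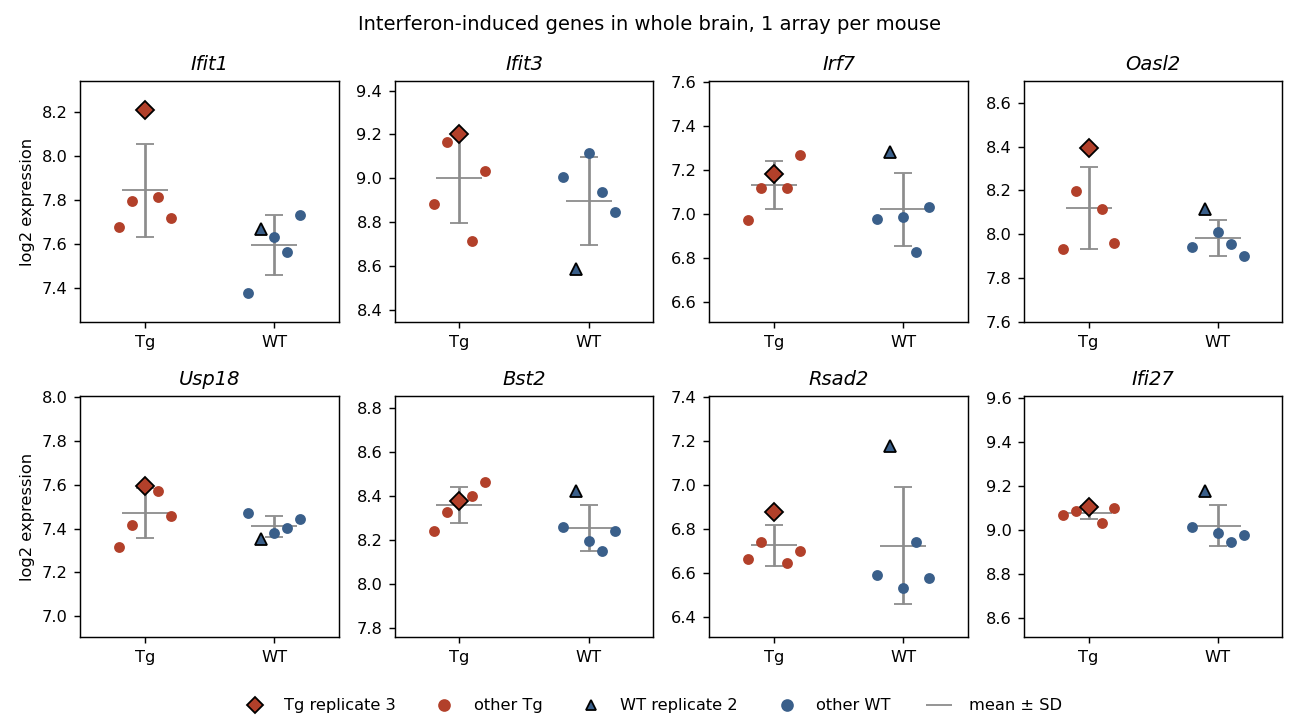
Values of the 8 interferon-induced genes on each array, in log2 expression units (vertical axis, the same span of 1.1 units in every panel), for Tg mice at the left and WT mice at the right of each panel; points are mice and grey bars the mean ± SD of 5. Tg replicate 3 (diamond) is the highest point for Ifit1, Ifit3, Oasl2 and Usp18, and WT replicate 2 (triangle) for Irf7, Rsad2 and Ifi27.

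The other 4 genes were read differently by the same mice. Irf7, the transcription factor that amplifies the type I response, had 6.97, 7.12, 7.18, 7.12 and 7.27 on Tg replicates 1 to 5, against 6.98, 7.28, 6.99, 6.83 and 7.03 on WT replicates 1 to 5. Bst2, or tetherin, a membrane protein that holds budding virus at the cell surface, read 8.24, 8.33, 8.38, 8.40 and 8.46 on Tg replicates 1 to 5, against 8.26, 8.42, 8.20, 8.15 and 8.24 on WT replicates 1 to 5. Both genes were high on Tg replicate 5 and WT replicate 2 and lowest on WT replicate 4. Tg replicate 3 was 0.06 above the mean of the other Tg arrays for Irf7 and 0.02 for Bst2, margins that 23.4% and 39.0% of all probe sets matched or passed.

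Rsad2 encodes viperin, a radical-SAM enzyme that makes a chain-terminating nucleotide. It read 6.66, 6.74, 6.88, 6.65 and 6.70 on Tg replicates 1 to 5, against 6.59, 7.18, 6.53, 6.74 and 6.58 on WT replicates 1 to 5. WT replicate 2 was 0.30 above the next array, which was Tg replicate 3. Ifi27, a small membrane protein, had 9.07, 9.09, 9.10, 9.03 and 9.10 on Tg replicates 1 to 5, against 9.01, 9.18, 8.98, 8.94 and 8.98 on WT replicates 1 to 5. It varied least of the 8, over 0.24 log2 units. For Ifi27, 4 of the 5 WT values lay below the lowest Tg value and WT replicate 2 lay above the highest.

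**Figure D2:**
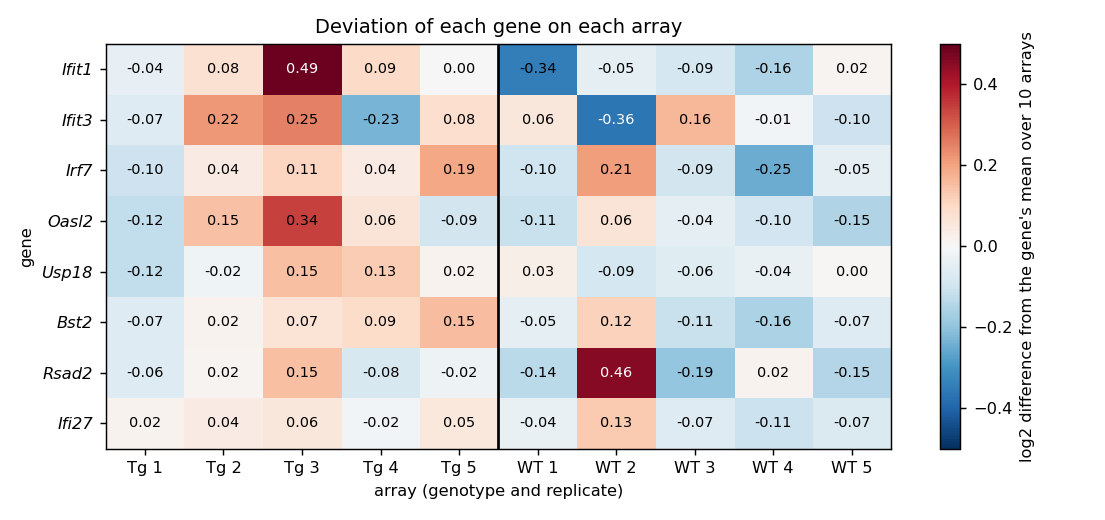
Difference of each gene (rows) on each array (columns, Tg replicates 1 to 5 left of the line and WT replicates 1 to 5 right of it) from that gene's mean over the 10 arrays, in log2 units, by colour and printed value. Every gene is above its mean on Tg replicate 3, from 0.06 for Ifi27 to 0.49 for Ifit1, and 5 of 8 are above it on WT replicate 2.

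Leaving WT replicate 2 out, 6 of the 8 genes had their highest value on Tg replicate 3, with 9.45% of all probe sets highest there, and the remaining 2, Irf7 and Bst2, on Tg replicate 5. Among the 5 Tg arrays alone, the same 6 were highest on Tg replicate 3, against a background of 18.0%. On WT replicate 2, 5 genes were the highest of the 5 WT arrays, and 49.6% of all probe sets were too. All 8 genes were above the mean of the other Tg arrays on Tg replicate 3, as were 47.1% of all probe sets. Their median there was 0.17 log2 units above that mean, where the median over all probe sets was -0.0069. Ifit1, known beforehand to be high on Tg replicate 3, is part of these counts and of this median. On the other side, WT replicate 4 held the lowest value of 3 genes, Irf7, Bst2 and Ifi27. Of all probe sets, 17.1% were also lowest there, a larger share than on any other array.

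Pairs of the genes were compared across the 10 arrays as a description, with no test. The median Pearson r over the 28 pairs was 0.46, within a span from -0.38 to 0.95, and the median r of the 8 genes with all probe sets was 0.063. Without Tg replicate 3 the median over pairs was 0.33, beside 0.11 with all probe sets. With the group means taken out these were 0.31 and 0.083. Without WT replicate 2 the median over pairs was 0.54, and 0.030 with all probe sets. All 28 pairs were above 0 there, beside 52.6% with all probe sets. Over 10 arrays 22 of the 28 pairs were above 0, beside 55.1% with all probe sets. Without Tg replicate 3 the count was 19, beside 57.1%. Without both arrays the median over pairs was 0.34, and 0.060 with all probe sets. Ifit1 and Oasl2 had r = 0.81 (Spearman's rho 0.55) over 10 arrays, and r = 0.50 (rho 0.38) without Tg replicate 3, so part of their likeness rested on that mouse.

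Irf7 and Bst2 were the closest pair, with r = 0.95 and rho 0.88 over 10 arrays. Their r was 0.95 as well over the 8 arrays without Tg replicate 3 and WT replicate 2 (rho 0.81). Ifi27 went with both, at r = 0.87 with Irf7 and 0.82 with Bst2. These 3 genes also followed many unrelated probe sets: 31.1% of all probe sets had an r above 0.5 with Irf7, 30.9% with Bst2 and 32.0% with Ifi27, while 3.79% did with Ifit1 and 6.87% with Oasl2. Without WT replicate 2 the shares were 21.7% for Irf7, 25.8% for Bst2 and 17.0% for Ifi27, and 7.38% for Ifit1 and 8.98% for Oasl2, so they lay closer together. Ifit3 followed its neighbour Ifit1 weakly (r = 0.28, and -0.16 without Tg replicate 3).

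The second question was the genotype. All 8 genes had a higher mean in Tg than in WT brain, by 0.10 log2 units at the median, where 47.8% of all probe sets had a higher mean in Tg and their median difference was -0.0031. Ifit1, whose difference was known beforehand, is among the 8, and the 7 genes tested were all higher in Tg. None of the 7 genes tested passed the threshold, an adjusted p of 0.05, in limma over all probe sets (adjusted p = 0.9998 for each). Of all probe sets 0.0345% passed in either direction and 0.00691% as higher in Tg. An unadjusted p under 0.05 was found for 0 of the 7 genes and for 2.21% of all probe sets. No gene had all its Tg values above all its WT values, and 0.149% of all probe sets did. In whole-brain RNA, more cells of a type and more RNA per cell cannot be told apart.

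Ifit1 averaged 7.84 ± 0.21 log2 units in Tg brain and 7.59 ± 0.14 in WT brain (SD, n = 5 each), a difference of 0.25 (SE 0.10) that is given without a test. Without Tg replicate 3 the Tg mean was 7.75 and the difference 0.16. Oasl2 averaged 8.12 ± 0.19 in Tg and 7.99 ± 0.08 in WT (SD, n = 5 each), a difference of 0.13 with a 95% interval from -0.05 to 0.32. It was 0.07 without Tg replicate 3 (-0.08 to 0.22), so the differences of both genes were smaller without this 1 mouse. Ifit3 differed by 0.10 (-0.14 to 0.34) and Usp18 by 0.06 (-0.06 to 0.18). Without Tg replicate 3 these were 0.05 (-0.20 to 0.30) and 0.03 (-0.09 to 0.15). Ifit3 moved further without WT replicate 2, to 0.02 (-0.19 to 0.24), and reached 0.17 without Tg replicate 4 and 0.16 without WT replicate 3. With array weights it was 0.0068. Usp18 was 0.10 without Tg replicate 1 and 0.04 without Tg replicate 4. For these 2 genes the size of the difference thus changed with several single arrays.

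The differences of the other 4 genes also moved with single WT arrays. Bst2 averaged 8.36 ± 0.08 in Tg and 8.25 ± 0.10 in WT (SD, n = 5 each), a difference of 0.11 (95% interval -0.02 to 0.24). This difference held at 0.10 without Tg replicate 3 and was 0.15 without WT replicate 2 (0.04 to 0.26). It was 0.08 without WT replicate 4 (-0.05 to 0.22) and 0.08 without Tg replicate 5. Irf7 differed by 0.11 (-0.06 to 0.29), by 0.10 without Tg replicate 3 and by 0.18 without WT replicate 2 (0.04 to 0.31), but by 0.06 without WT replicate 4 (-0.11 to 0.23). Ifi27 differed by 0.06 (-0.05 to 0.17), by 0.05 without Tg replicate 3 and by 0.10 without WT replicate 2 (0.02 to 0.18), but by 0.04 without WT replicate 4 (-0.07 to 0.15).

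Rsad2 had nearly equal means, 6.72 ± 0.09 in Tg and 6.72 ± 0.27 in WT (SD, n = 5 each), a difference of 0.00095 (-0.24 to 0.24). It was -0.04 without Tg replicate 3 and 0.11 without WT replicate 2. With WT replicate 2 left out, Irf7, Bst2 and Ifi27 had an unadjusted p under 0.05, as had 11.0% of all probe sets, and the lowest adjusted p of the 7 genes was 0.407 in limma. All 8 means were higher in Tg in that comparison, against 54.2% of probe sets. Without Tg replicate 3, 7 of 8 means were higher in Tg, against 48.9%, and the median difference of the 8 genes was 0.059. With Ifit1 set aside, 7 of 7 means were higher without WT replicate 2 and 6 of 7 without Tg replicate 3. 

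**Figure D3:**
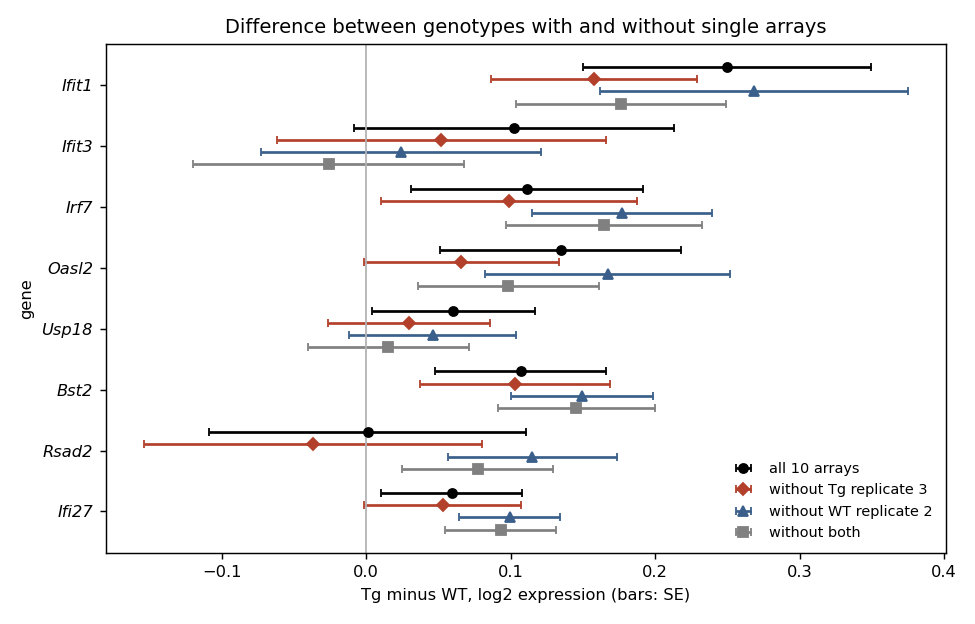
Tg minus WT in log2 expression (horizontal axis) for each gene (rows), with bars for the SE, from all 10 arrays, without Tg replicate 3, without WT replicate 2 and without both. The differences of Ifit1 (0.25 and 0.16) and Oasl2 (0.13 and 0.07) are smaller without Tg replicate 3, and that of Rsad2 (0.00095 and 0.11) is larger without WT replicate 2.

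A wider list of interferon-induced genes was read the same way. Of its 44 genes 39 had a value. Tg replicate 3 was the highest of the 10 arrays for 12 of the 39, or 30.8%, beside 6.31% of all probe sets, and WT replicate 2 for 11, or 28.2%, beside 36.5%. The median of the 39 genes on Tg replicate 3 was 0.07 log2 units above the mean of the other Tg arrays. Between genotypes 0 of the 39 passed in limma, beside 0.0345% of all probe sets, with a median difference of 0.020. Ifi35 and Ifitm3, 2 of the 39, had an unadjusted p under 0.05 in limma, as had 2.21% of all probe sets.

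On Tg replicate 3 the widest margins of the wider list lay in the Ifit cluster on chromosome 19. They were 0.29 over the next array for Ifit3b and 0.13 for Ifit2. Ifit3b, a close copy of Ifit3, read 5.91 on Tg replicate 3, against 5.16, 5.63, 5.06 and 4.98 on Tg replicates 1, 2, 4 and 5. Its signal was low, with 10.1% of all probe sets dimmer. Its WT values ran from 5.08 to 5.51, and since the copies are nearly alike, how far their probe sets share RNA is uncertain. Ifit2, of the same family, read 7.89 on Tg replicate 3, against 7.43 to 7.52 on the other Tg arrays and 7.45 to 7.76 on the WT arrays. Ifit1, Ifit2, Ifit3 and Ifit3b were thus each at their highest on the same mouse.

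Away from that cluster, Samd9l, an antiviral translation inhibitor on chromosome 6, read 7.12 on Tg replicate 3, 0.41 above the mean of the other Tg arrays and 0.11 above the next array, WT replicate 5. Lgals3bp, a secreted glycoprotein, was 0.12 above the next array, and Rtp4, a chaperone of receptor trafficking, 0.11. The other 7 of the 12 were Epsti1, Slfn2, Phf11d, Slfn8, Dtx3l, Mx2 and Trim25, with margins of 0.10 or less. Of the 39 genes 25 were above the mean of the other Tg arrays on Tg replicate 3, beside 47.1% of all probe sets, and 14 were not. Oas2 and Oas3, oligoadenylate synthetases, were furthest below it, at -0.26 and -0.20. Ifitm3, which blocks virus entry, read 9.66 on Tg replicate 3 and 9.69 on Tg replicate 4, and Ifitm2, of the same family, 9.95 and 10.08. Adar, which edits double-stranded RNA, read 10.30 on Tg replicate 3, below Tg replicate 2 at 10.44.

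**Figure D4:**
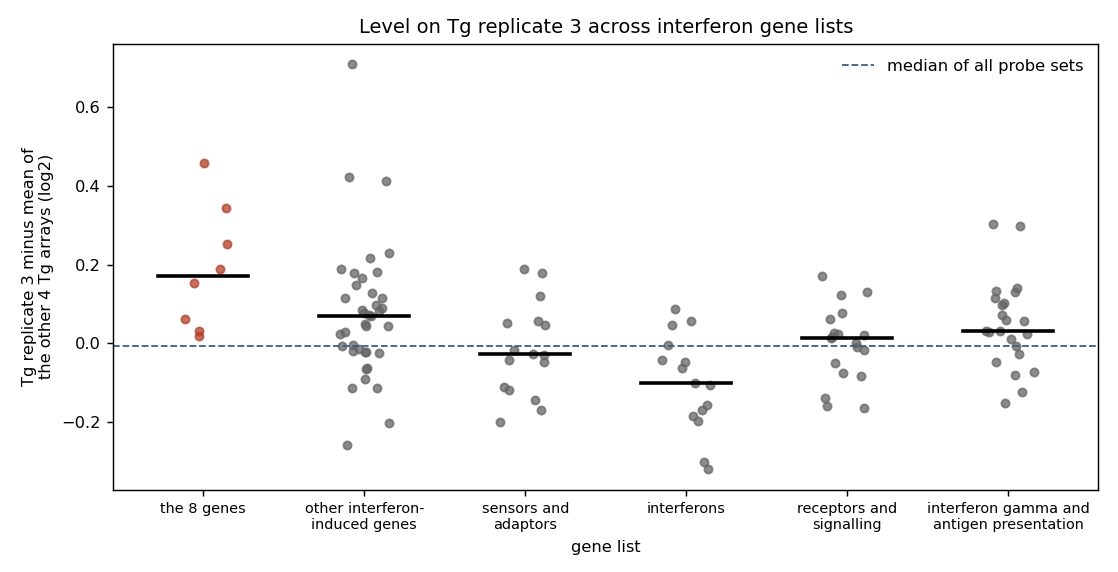
Level on Tg replicate 3 minus the mean of the other 4 Tg arrays (vertical axis, log2 units) for each measured gene of 6 lists, with a black line at each list's median and a dashed line at the median of all probe sets (-0.0069). The median is 0.17 for the 8 genes and 0.07 for the other interferon-induced genes, and -0.10 for the interferons themselves.

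Of the interferons, the ligands of the pathway, 15 were measured, and 3 were above the mean of the other Tg arrays on Tg replicate 3, beside 47.1% of all probe sets. Their median there was -0.10 relative to the other Tg arrays. On Tg replicate 3, 0 of the 15 had their highest value, a count near the background of 6.31%. Ifng, the type II interferon, read 7.03 on Tg replicate 3, against 6.89 to 7.09 on the other Tg arrays and 6.92 to 7.09 on the WT arrays. WT replicate 2 was highest for 8 of the 15, beside 36.5% of all probe sets.

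Sensors and adaptors that start the response (16 measured) had 2 genes highest on Tg replicate 3, beside the same 6.31%. WT replicate 2 was highest for 7 of the 16, beside 36.5% of all probe sets. The median of the 16 on Tg replicate 3 was -0.03 against the other Tg arrays, with 6 above them, beside 47.1% of all probe sets. Highest on Tg replicate 3 were Tlr3, the endosomal sensor of double-stranded RNA, and Ddx58 (RIG-I). Tlr3 read 8.73 there against 8.34 to 8.66 on the other Tg arrays, and Ddx58 8.30 against 7.97 to 8.18. Both are themselves inducible by interferon. Ifih1 (MDA5) read 7.52 on Tg replicate 3 and 7.62 on WT replicate 4, and the kinase Tbk1 and the adaptor Mavs were lower on Tg replicate 3 than the mean of the other Tg arrays by 0.05 and 0.04.

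Receptors and signalling genes (19 measured) also had 2 highest on Tg replicate 3, Socs1 and the phosphatase gene Ptpn6, beside 6.31% of all probe sets. WT replicate 2 was highest for 8 of the 19, beside 36.5% of all probe sets. The median of the 19 on Tg replicate 3 was 0.01 over the other Tg arrays. Socs1, the feedback inhibitor of Jak kinases, read 8.11 on Tg replicate 3 against 7.89 to 8.02 on the other Tg arrays and 7.77 to 8.09 on the WT arrays. Irf9, a transcription factor of the type I response, read 8.46 on Tg replicate 3 and 8.48 on Tg replicate 5, and Ifnar2 was 0.13 above the other Tg arrays. Jak1, Ifngr2 and Ptpn11 stayed within 0.03 of them.

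Genes of interferon gamma response and antigen presentation (23 of 31 measured) had 2 at their highest on Tg replicate 3, B2m and Cd74. The share of all probe sets was 6.31%. WT replicate 2 was highest for 11 of the 23, beside 36.5% of all probe sets. The median of the 23 on Tg replicate 3 was 0.03 over the other Tg arrays. B2m, the light chain of class I molecules, read 12.19 on Tg replicate 3, against 11.93 to 12.16 on the other Tg arrays and 11.99 to 12.06 on the WT arrays. Cd74, the invariant chain of class II molecules, read 7.75 on Tg replicate 3, against 7.32 to 7.57 on the other Tg arrays and 7.47 to 7.67 on the WT arrays. Gbp7, a guanylate-binding protein, was 0.30 above the other Tg arrays and Tap2, a peptide transporter, 0.14, but both were higher on WT replicate 2. Nlrc5 and Psmb10 were below the other Tg arrays, by 0.12 and 0.03.

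Of 5 enzymes that attach Isg15 to proteins, 2 were above the other Tg arrays on Tg replicate 3, beside 47.1% of all probe sets. Their levels do not give that of Isg15 itself. Herc6, Trim25, Uba7 and Ube2l6 are also on the wider list, so Trim25 was already counted there. Trim25, a ligase, was highest on Tg replicate 3 by 0.01, and Herc6 and Arih1, also ligases, were 0.03 and 0.08 below the other Tg arrays. Across the sensor, ligand, receptor, interferon gamma and Isg15 lists 0 genes passed between genotypes in limma, beside 0.0345% of all probe sets. An unadjusted p under 0.05 in limma was found for 2 of these genes, beside 2.21% of all probe sets. They were Ciita and Cxcl9, of the 23 measured on the interferon gamma list.

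Genes with the profile most like the mean of the 8 were then sought over 10 arrays, by Pearson r and with no test. The 10 closest outside the list were Gm2027, Chrna6, 1700003F12Rik, Ccdc92b, Ly6g6d, Hs3st3b1, Gm10461, Gdpd5, Golga7b and Ccdc60, with r from 0.92 to 0.86. Without Tg replicate 3 (9 arrays) they were Olfr1215, 4933427D06Rik, Prex1, Olfr1031, Dpysl5, Tnn, Ranbp3, Mitf, Olfr607 and Hoxb6, with r from 0.97 to 0.94. None of these is on the interferon lists used here, and the 2 sets share no gene.

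Cell markers on Tg replicate 3 were read beside these results. Microglial markers (14 of 15 measured) had a list mean of 8.96 on Tg replicate 3, the highest of the Tg arrays at 8.87 to 8.96, while WT arrays had 8.81 to 9.05. WT replicate 2 alone was higher. The list mean was 0.05 above the mean of the other Tg arrays on Tg replicate 3. Of the 14 markers 11 were above that mean there, beside 47.1% of all probe sets. Counts were similar or higher for astrocyte (11 of 14), endothelial and mural (13 of 17) and meningeal markers (10 of 12). The same held for cerebellar (10 of 12), olfactory bulb (13 of 14) and blood markers (6 of 7). Lower counts were found for neuronal (8 of 14), oligodendrocyte (7 of 13), lymphocyte (3 of 13) and activated microglia and macrophage markers (6 of 14). Ependymal (3 of 10), choroid plexus (1 of 11) and pituitary markers (3 of 9) also had lower counts. By list mean, lymphocyte markers (13 of 15 measured) were at 6.15 on Tg replicate 3, within 6.13 to 6.25 on Tg and 6.09 to 6.35 on WT arrays. Markers of activated microglia and macrophages (14) were at 6.80 there, within 6.74 to 6.84 on Tg and 6.71 to 7.02 on WT arrays. Blood markers (7 of 14) were at 7.06 there, the highest of the Tg arrays at 6.90 to 7.06, while WT arrays had 6.88 to 7.76.

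Some tissue markers were highest on that mouse. Olfactory bulb markers (14) averaged 8.94 on Tg replicate 3, the highest of all arrays, with 8.39 to 8.94 on Tg and 8.31 to 8.54 on WT arrays. Meningeal markers (12) averaged 8.80 there, with 8.63 to 8.80 on Tg and 8.66 to 8.72 on WT arrays, and endothelial and mural markers (17 of 18) 9.14, with 9.07 to 9.14 on Tg and 9.05 to 9.09 on WT arrays. Choroid plexus markers (11 of 12) were lowest among the Tg arrays there, at 8.71. The part of these tissues in the interferon gene values was not tested.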

How the data were processed

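Whole-brain RNA of 5 Tg and 5 WT mice was measured on 1 Affymetrix gene array per mouse. Per the submitters' processing notes, the authors used Expression Console 1.1.2 from Affymetrix. How it corrected background, normalized and summarised is not stated in any source at hand. The values deposited by the authors lie between 3.28 and 14.7, as log2 expression does, and were taken as they stand. No scanner signal was read, so no probe set was called above or below background. Of 35556 rows, 6612 platform controls were left out and 28944 probe sets tested. Of these, 21789 had 1 gene, 1621 several and 5534 none in the platform annotation; 21698 were matched to current symbols through Entrez identifiers (RefSeq, GRCm38.p6).

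Tg and WT were compared with limma 3.58.1 in R 4.3.3 (lmFit, eBayes, no covariate, two-sided, Benjamini-Hochberg adjustment over all probe sets, threshold 0.05), a step tested on simulated data. Each difference is the Tg mean minus the WT mean, with its 95% interval. The number of arrays limits the precision.

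The 8 genes, the lists and the tests were chosen with earlier results of these data known. Named besides the 8 genes are, per list, genes past the threshold, the 3 brightest and up to 3 with the largest lead of Tg replicate 3, and the 10 genes most like the mean profile. Lgals3bp, Rtp4 and the other genes named as highest on Tg replicate 3 or by unadjusted p were named after their values were seen. Alternatives covered normalization, a filter on dim probe sets, variance model, array weights, replicate block, averaging of probe sets and leaving out arrays.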

Additional observations from a re-analysis of the deposited data

Results flagged for a closer look

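Ifit1 on Tg replicate 3 stood apart from the other Tg arrays. It read 8.21 there, against 7.68 to 7.81 on the other 4, and this gap took up 0.745 of the Tg range. The part of this array in the values of Ifit1 was known when the genes were chosen, so the ratio is a description and not a test. Such a ratio was taken in 16 sets, each of the 8 genes in each genotype. The cutoff was 0.71, which 5% of sets are expected to pass by chance, and only Ifit1 in Tg passed it. In WT, WT replicate 2 was the far array for Ifi27, with a ratio of 0.704, and for Rsad2, with 0.678, both under the cutoff.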

How the results depend on the processing

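None of the 7 genes tested passed the threshold in any of 18 alternatives, and their lowest adjusted p in limma was 0.366, for Bst2 without Tg replicate 3 and WT replicate 2 together, an alternative chosen after seeing the data. The differences of Ifit1, Irf7, Oasl2, Usp18, Bst2 and Ifi27 stayed above 0 in every alternative run, from 0.16 to 0.29 for Ifit1. The sign of Rsad2 turned with quantile normalization (-0.027), with median centring (-0.00014) and with several single arrays left out, where it ranged from -0.047 to 0.11. Ifit3 turned to -0.026 without both of the arrays named above, while with single arrays left out it ranged from 0.024 to 0.17. The median difference of the 8 genes lay between 0.059 and 0.13. The count of genes highest on Tg replicate 3 was 4 to 6 of 8, and 10 to 14 of 39 for the wider list, these last alternatives being chosen after seeing the data. With the replicate number as a block the differences were the same, the tested genes had adjusted p values of 0.9992 to 0.9993, and 0 passed. The correlations of same-numbered deviations ran from -0.47 to 0.45, and 2 of 5 Tg arrays were most like the WT array of their own number. With so few arrays this check cannot decide whether replicate numbers pair them. With the dimmest 40% of probe sets left out, Irf7 and Rsad2 were not in the fit. The number of arrays, and signal over background that is unknown here, limit what could be seen.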

Other observations

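Ube2l6, the enzyme that carries Isg15 to its ligases, was chosen by the rule for the Isg15 list and had 1 value far from the rest. It read 8.08 to 8.28 on the Tg arrays, against 8.10, 9.18, 8.08, 8.12 and 8.07 on WT replicates 1 to 5. WT replicate 2 was thus the one array above 9, and it was also highest for Rsad2 at 7.18. Blood markers (7 of 14 measured) averaged 6.90 to 7.06 on the Tg arrays and 6.88 to 7.76 on the WT arrays, with 7.76 on WT replicate 2 and 7.43 on WT replicate 4. Pituitary markers (9 of 10) averaged 9.36 on Tg replicate 2 and 9.69 on WT replicate 2, and 7.25 to 7.49 on the other 8 arrays. The part of either tissue in these values was not tested.

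Promoters of the wider list were searched for the same response element core. Of 29 genes with a window, 10 held it (34.5%), beside 3.44% of all windows. On Tg replicate 3 the median over the other Tg arrays was 0.06 for the 10 genes with the core and 0.05 for the 19 without it.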
